A study of Mus musculus with 4 samples.

Results

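RNA was measured in mouse embryonic fibroblasts for 9 genes of TGF-β and activin signalling: the ligand genes Tgfb1, Tgfb2, Tgfb3, Inhba and Inha, the receptor genes Tgfbr1, Tgfbr2 and Tgfbr3, and Ltbp1, which encodes a latent TGF-β binding protein. They were taken by name from the 21839 genes of the deposited table, and all 9 were among the 11335 genes called expressed, whose FPKM (reads per kilobase of gene length per 1000000 reads) reached 1 in some library. The fibroblasts were wild-type cells from C57BL/6 embryos at 13.5 days, used at low passage and harvested after 48 h. The paper describes direct coculture, and also coculture with fibroblasts on the upper side of an insert with pores of 0.4 μm. Its account of the RNA-seq does not say which of these was used, or whether MSCs were kept out of the RNA. The 4 conditions were fibroblasts cultured alone, fibroblasts cocultured with mesenchymal stem cells (MSCs) from C57BL/6 bone marrow, and the same cultures with QNZ, an NF-κB inhibitor whose dose was not found in the labels or methods. Each condition had 1 library, so the spread between cultures is unknown, no difference has a replicate check and no p-value is given. Whether cells of several embryos were pooled is not stated.

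TGF-β is secreted as a latent complex that binding proteins such as LTBP1 hold in the extracellular matrix until it is released. The active ligand binds the type II receptor, which recruits and phosphorylates the type I receptor, and that receptor phosphorylates Smad2 and Smad3. Activin A is a dimer of the βA subunit encoded by Inhba and signals through its own receptors to the same Smads. Inhibin joins the α subunit encoded by Inha to a β subunit, and it opposes activin. In fibroblasts this signalling is known for driving matrix production and the contractile myofibroblast state.

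Of the 9 genes, 7 matched a RefSeq promoter window (GRCm38.p6, the assembly of mm10), and the 250 bases before the RefSeq start were read for short motifs on both strands. The windows of Inhba and Tgfbr1, which were higher in coculture, are shown beside those of Tgfb1 and Ltbp1, whose differences were under 1 on the log2(FPKM + 1) scale. All 4 are on the plus strand, and capitals mark every match.
Inhba, chr13:16011601-16011850: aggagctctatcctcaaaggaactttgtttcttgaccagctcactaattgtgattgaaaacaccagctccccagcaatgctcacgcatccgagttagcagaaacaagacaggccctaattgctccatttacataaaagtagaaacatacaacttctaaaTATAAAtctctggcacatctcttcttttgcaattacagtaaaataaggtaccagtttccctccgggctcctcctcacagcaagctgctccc
Tgfbr1, chr4:47352972-47353221: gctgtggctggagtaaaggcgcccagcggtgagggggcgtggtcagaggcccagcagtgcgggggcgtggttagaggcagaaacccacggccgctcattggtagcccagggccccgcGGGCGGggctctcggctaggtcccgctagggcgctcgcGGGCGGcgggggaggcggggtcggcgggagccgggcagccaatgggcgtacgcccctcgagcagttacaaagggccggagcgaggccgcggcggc
Tgfb1, chr7:25686752-25687001: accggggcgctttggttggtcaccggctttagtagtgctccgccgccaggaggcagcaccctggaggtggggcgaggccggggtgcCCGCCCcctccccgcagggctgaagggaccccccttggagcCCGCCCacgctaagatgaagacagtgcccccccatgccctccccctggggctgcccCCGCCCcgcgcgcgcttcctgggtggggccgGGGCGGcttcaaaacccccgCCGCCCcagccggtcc
Ltbp1, chr17:75005279-75005528: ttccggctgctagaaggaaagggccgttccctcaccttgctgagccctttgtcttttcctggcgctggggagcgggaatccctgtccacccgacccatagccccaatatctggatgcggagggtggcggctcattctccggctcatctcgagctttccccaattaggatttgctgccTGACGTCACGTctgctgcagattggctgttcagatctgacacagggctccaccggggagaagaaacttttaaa
Of the motifs searched, the GC box was read as CCGCCC and the TATA box as TATAAA. The whole CRE was read as TGACGTCA, which holds the shorter CRE form TGACG on each strand. The Smad motif was read as CAGACA, the core of the hypoxia response element as ACGTG and the AP-1 motif as TGANTCA, where N is any base. The NF-κB motif was GGGA followed by any base and then TTTCC. Tgfb1 held 5 GC boxes and Tgfbr1 held 2, and 32.7% of all 32851 windows held at least 1. G and C made up 75.2% of the Tgfb1 window, 74.8% of that of Tgfbr1 and 43.2% of that of Inhba. Inhba held a TATA box from -91 to -86, where -1 is the last base before the start, and 12.4% of all windows held one. Ltbp1 held the whole CRE from -73 to -66, found in 1.55% of all windows, and an ACGTG on the other strand overlaps it. The windows of Tgfb2, Inha and Tgfbr2 are not printed. Part of the Tgfb2 window is an exon of the antisense gene Gm29491, and that of Inha lies inside its own annotated first exon. Tgfb2 held a Smad motif from -204 to -199, found in 17.1% of all windows, and a TATA box from -31 to -26. It also held the shorter CRE form from -72 to -68, found in 17.8% of all windows. An ACGTG lay on each strand between -51 and -46, and 16.6% of all windows held this core. Inha and Tgfbr2 held no match. The NF-κB and AP-1 letters were found in none of the 7 windows, and in 0.356% and 6.75% of all windows. A match is a run of letters and does not show that a factor binds there, and the lack of one says only that these letters are not in the window.

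The 4 libraries held between 13153696 and 15778488 reads assigned to genes. A difference of log2(FPKM + 1) of at least 1 between libraries was called higher or lower, and ratios of reads per 1000000 have exact 95% binomial intervals, which cover counting error only. Between coculture and alone the difference grew with gene length, from a median of -0.74 in the shortest of 10 groups of genes to 1.12 in the longest. The share of mitochondrial reads was 0.291% alone, 0.738% in coculture, 0.580% alone with QNZ and 1.49% in coculture with QNZ. Fibroblast markers were present, with a summed FPKM between 1144 and 2065 for 9 genes, although Fap and S100a4 were below 1 in every library. Of 8 macrophage markers, 5 were below 1 in every library. Without QNZ 2 of the 8 (Cd68 and Lyz2) were higher in coculture and none lower, beside 24.0% higher and 11.0% lower of all expressed genes. The summed FPKM of all 8 was 8.04 alone, 16.9 in coculture, 11.1 alone with QNZ and 11.2 in coculture with QNZ. Of the others, Adgre1 had reads of 1 alone, 20 in coculture, 2 alone with QNZ and 9 in coculture with QNZ. Csf1r had 22 alone, 53 in coculture, 7 alone with QNZ and 25 in coculture with QNZ. Ptprc, a gene of leukocytes in general, had 2 alone, 5 in coculture, 3 alone with QNZ and 0 in coculture with QNZ. Tyrobp had 0 alone, 6 in coculture, 3 alone with QNZ and 0 in coculture with QNZ. Itgam had 2 alone, 2 in coculture and 0 in both libraries with QNZ. Cd14 had 118 alone, 96 in coculture, 133 alone with QNZ and 87 in coculture with QNZ. Of 7 bone marrow stromal markers, 3 were below 1 in every library, and 2 (Cxcl12 and Kitl) were higher in coculture in each pair. Of all expressed genes, 24.0% were higher without QNZ and 14.0% with it. The summed FPKM of all 7 was 495 alone, 374 in coculture, 178 alone with QNZ and 256 in coculture with QNZ. The most abundant of the 7, Ly6a, had an FPKM of 446 alone, 227 in coculture, 129 alone with QNZ and 124 in coculture with QNZ. Ly6a was the only marker of this list that was lower in coculture, so it sets the direction of the sum without QNZ. Vcam1 had 23.0 alone, 41.3 in coculture, 19.9 alone with QNZ and 32.5 in coculture with QNZ. Lepr had reads of 3 alone, 23 in coculture, 16 alone with QNZ and 39 in coculture with QNZ. Nt5e had 20 alone, 54 in coculture, 8 alone with QNZ and 39 in coculture with QNZ. Adipoq had 0 alone, 10 in coculture, 0 alone with QNZ and 3 in coculture with QNZ. The part of gene length, mitochondrial reads and these markers in the results that follow was not tested. In bulk RNA, fewer cells of a type and less RNA per cell cannot be told apart. How much of the RNA in the coculture libraries came from MSCs was not tested, for the 9 genes or any other.

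Inha, Inhba, Tgfbr1 and Tgfbr3 were higher in the libraries of fibroblasts cocultured with MSCs, both without and with QNZ. Tgfb1 and Tgfb3 differed by less than 0.4 in either direction. Of the 9 genes, 4 were higher in coculture without QNZ and none was lower, beside 24.0% higher and 11.0% lower of all expressed genes. The median difference was 0.99 for the 9 genes and 0.35 for all expressed genes. In the pair with QNZ the same 4 genes were higher and none lower, beside 14.0% and 8.70% of all expressed genes, and the medians were 0.61 and 0.18. These 2 pairs share no library. The split of all expressed genes depends on the scaling. Without QNZ, 2719 were higher and 1252 lower as deposited, 1477 and 2342 under median-of-ratios scaling, 5273 and 646 as TPM (transcripts per 1000000), and 1138 and 1287 once a trend over length and GC content was taken out. The median difference of all expressed genes was then -0.07, 0.90 and 0.03. Beside each gene below, its detrended difference means the one with that trend taken out.

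**Figure D1:**
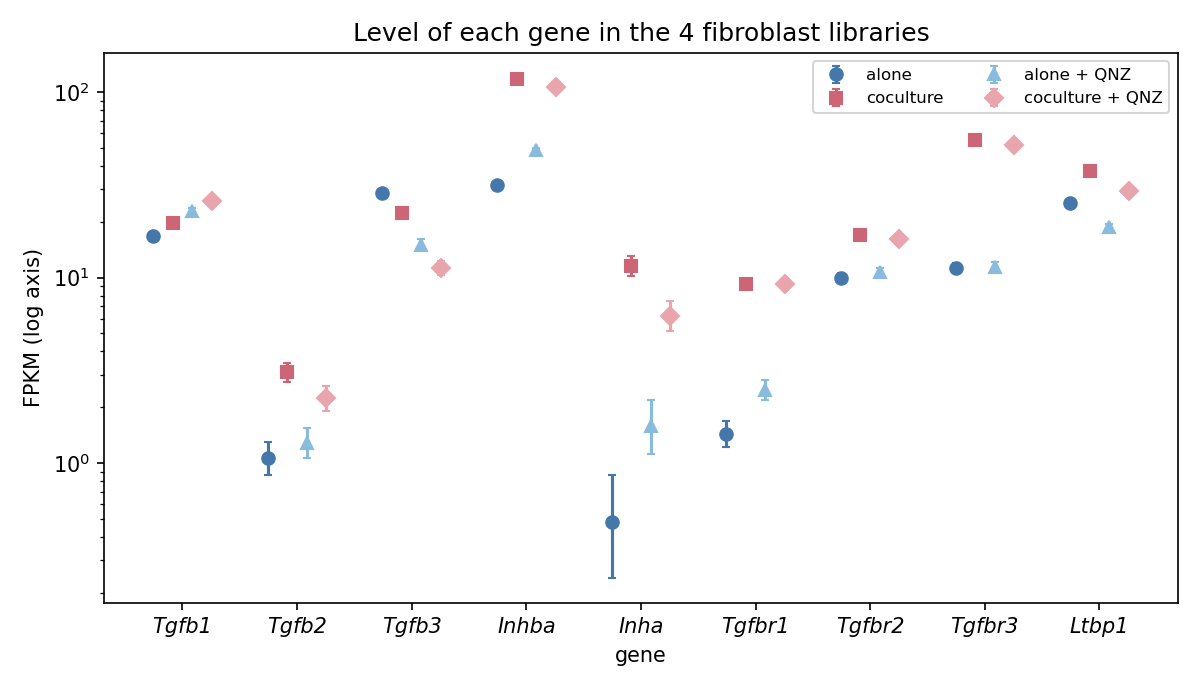
FPKM (log axis) of the 9 genes in the 4 fibroblast libraries, with 1 point per library and bars for the exact 95% Poisson interval of the reads. Inha spans from 0.484 alone to 11.6 in coculture, Inhba is the most abundant of the 9 in every library, and Tgfb3 is lower in both libraries with QNZ than in both without it.

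Inhba, the activin βA subunit gene, was the most abundant of the 9 per length in every library. It had reads of 3127 alone, 11116 in coculture, 4925 alone with QNZ and 8915 in coculture with QNZ, and its FPKM was 31.8 alone, 117 in coculture, 48.8 alone with QNZ and 106 in coculture with QNZ. Both coculture libraries lay above both libraries without MSCs. The ratio of coculture to alone was 3.68 (3.54 to 3.83) without QNZ and 2.17 (2.10 to 2.25) with QNZ, and the log2(FPKM + 1) differences were 1.85 and 1.10. Only 299 of the 21839 genes had a higher FPKM in the coculture library without QNZ. No exon of another annotated gene overlaps those of Inhba (ENSMUSG00000041324, plus strand of chromosome 13 of mm10, 16011851 to 16031621). Its detrended differences were 1.02 and 0.64, so the one with QNZ was no longer called.

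Inha, the inhibin α subunit gene, was the least abundant of the 9 in fibroblasts alone and had the largest coculture difference without QNZ. It had reads of 11 alone, 254 in coculture, 37 alone with QNZ and 121 in coculture with QNZ, and its FPKM was 0.484 alone, 11.6 in coculture, 1.59 alone with QNZ and 6.24 in coculture with QNZ. The libraries rank from alone through alone with QNZ and coculture with QNZ to coculture. The ratio of coculture to alone was 23.9 (13.1 to 48.5) without QNZ, a wide interval that rests on 11 reads, and 3.92 (2.69 to 5.83) with QNZ. On the log2(FPKM + 1) scale the differences were 3.08 and 1.48, and 17 expressed genes had a larger one without QNZ. Inha (ENSMUSG00000032968, plus strand of chromosome 1 of mm10, 75507077 to 75510366) is short, at 1475 bases, and its detrended differences were 3.53 and 1.95. The ratio of Inha to Inhba FPKM within a library, which does not depend on scaling between libraries, was 0.0152 (0.00760 to 0.0273) alone, 0.0990 (0.0871 to 0.112) in coculture, 0.0325 (0.0229 to 0.0449) alone with QNZ and 0.0588 (0.0487 to 0.0704) in coculture with QNZ. The α subunit gene thus stayed far below the βA subunit gene, and each coculture library had a higher ratio than its partner alone.

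Tgfb1, Tgfb2 and Tgfb3, which encode the 3 TGF-β isoforms, had a summed FPKM of 46.2 alone, 45.0 in coculture, 39.1 alone with QNZ and 39.3 in coculture with QNZ. Of that sum Tgfb3 held 61.4% alone, 49.4% in coculture, 38.5% alone with QNZ and 28.7% in coculture with QNZ. Tgfb1 held 36.3% alone, 43.8% in coculture, 58.2% alone with QNZ and 65.6% in coculture with QNZ. The sum was lower in both libraries with QNZ, and the larger share passed from Tgfb3 to Tgfb1 there.

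Tgfb1 had an FPKM of 16.8 alone, 19.7 in coculture, 22.8 alone with QNZ and 25.8 in coculture with QNZ, from 1303 to 1811 reads. The coculture ratios were 1.17 (1.09 to 1.27) without QNZ and 1.13 (1.06 to 1.21) with QNZ. The differences of 0.22 and 0.17 turned to -0.29 and -0.09 under median-of-ratios scaling, so no direction can be given. No other annotated gene overlaps Tgfb1 (ENSMUSG00000002603, plus strand of chromosome 7 of mm10, 25687002 to 25705077).

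Tgfb3 had an FPKM of 28.4 alone, 22.2 in coculture, 15.1 alone with QNZ and 11.3 in coculture with QNZ, from 502 to 1481 reads. Both libraries with QNZ lay below both libraries without it. The coculture ratios were 0.781 (0.722 to 0.845) and 0.749 (0.669 to 0.838), and the differences of -0.34 and -0.39 became 0.16 and -0.03 as TPM. Exons of Gm37804 and Gm48008 on the other strand overlap those of Tgfb3 (ENSMUSG00000021253, minus strand of chromosome 12 of mm10, 86056745 to 86079041), so its reads are uncertain because it is not known whether counting used strand.

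Tgfb2 was the rarest isoform, with reads of 95 alone, 266 in coculture, 118 alone with QNZ and 170 in coculture with QNZ and an FPKM of 1.06 alone, 3.09 in coculture, 1.29 alone with QNZ and 2.23 in coculture with QNZ. Both coculture libraries were above both libraries without MSCs. The coculture ratios were 2.90 (2.29 to 3.71) and 1.73 (1.36 to 2.205), with differences of 0.99 and 0.50, so that Tgfb2 lay just under the size of 1 without QNZ. With a pseudocount of 0.1 it passed that size, at 1.45, and detrended it had 0.58. Tgfb2 (ENSMUSG00000039239, minus strand of chromosome 1 of mm10, 186622792 to 186705989) shares exon bases with Gm29491 on the other strand and is uncertain for the same reason.

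The 3 receptor genes had coculture differences of very different size. Tgfbr1, which encodes the type I receptor kinase, had reads of 145 alone, 900 in coculture, 257 alone with QNZ and 792 in coculture with QNZ and an FPKM of 1.44 alone, 9.26 in coculture, 2.49 alone with QNZ and 9.22 in coculture with QNZ. The coculture libraries were at nearly the same level, with both libraries without MSCs far below. The ratios were 6.43 (5.39 to 7.72) and 3.70 (3.21 to 4.27), with differences of 2.07 and 1.55, or 1.49 and 1.17 detrended. Tgfbr1 (ENSMUSG00000007613, plus strand of chromosome 4 of mm10, 47353222 to 47414931) has no overlapping gene.

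Tgfbr3 encodes betaglycan, a co-receptor that presents TGF-β2 to the type II receptor and binds inhibin. It had reads of 1141 alone, 5389 in coculture, 1177 alone with QNZ and 4485 in coculture with QNZ and an FPKM of 11.3 alone, 55.4 in coculture, 11.4 alone with QNZ and 52.1 in coculture with QNZ. Each library with QNZ was close to its partner without QNZ, and the coculture libraries were far above the others. The ratios were 4.89 (4.59 to 5.22) and 4.57 (4.29 to 4.88), with differences of 2.19 and 2.10, or 1.60 and 1.78 detrended. In the pair with QNZ 106 expressed genes had a larger difference. Tgfbr3 (ENSMUSG00000029287, minus strand of chromosome 5 of mm10, 107106570 to 107289629) shares exon bases with Gm43422 on its own strand, so its reads are uncertain.

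Tgfbr2, the type II receptor gene, had an FPKM of 10.0 alone, 17.0 in coculture, 10.7 alone with QNZ and 16.1 in coculture with QNZ, from 1263 to 2076 reads. Both coculture libraries were above the others. The ratios were 1.70 (1.59 to 1.83) and 1.51 (1.41 to 1.63), and the differences of 0.71 and 0.56 became -0.26 and -0.07 with the trend with length alone taken out, so no direction can be given for Tgfbr2 (ENSMUSG00000032440, minus strand of chromosome 9 of mm10, 116084293 to 116175360). Within a library Tgfbr3 stood to Tgfbr2 per length as 1.13 (1.04 to 1.23) alone, 3.25 (3.09 to 3.42) in coculture, 1.07 (0.988 to 1.16) alone with QNZ and 3.23 (3.05 to 3.41) in coculture with QNZ. Tgfbr1 stood to Tgfbr2 as 0.144 (0.120 to 0.171) alone, 0.543 (0.502 to 0.588) in coculture, 0.234 (0.204 to 0.267) alone with QNZ and 0.571 (0.524 to 0.621) in coculture with QNZ. Both ratios were higher in each coculture library than in its partner alone.

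Ltbp1 had an FPKM of 25.3 alone, 37.7 in coculture, 18.8 alone with QNZ and 29.3 in coculture with QNZ, from 3172 to 5990 reads. Each coculture library was above its partner alone, with ratios of 1.49 (1.43 to 1.55) and 1.56 (1.49 to 1.63). The differences of 0.56 and 0.61 turned to -0.44 and -0.02 detrended, so no direction can be given for this long gene of 10691 bases (ENSMUSG00000001870, plus strand of chromosome 17 of mm10, 75005568 to 75392512).

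**Figure D2:**
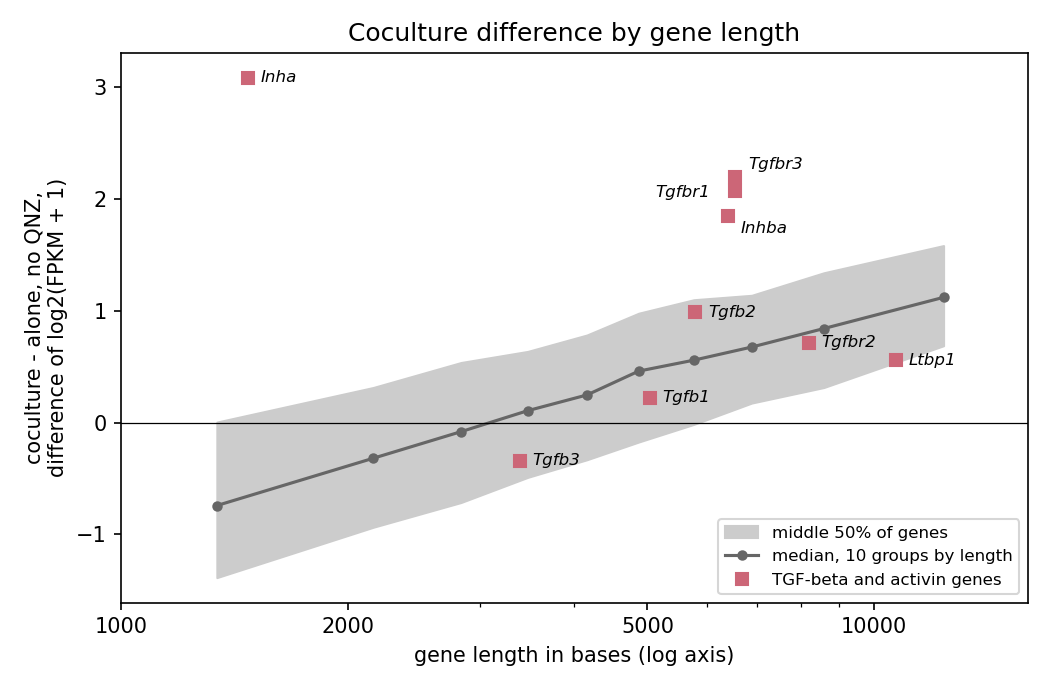
Difference of log2(FPKM + 1) for coculture minus alone without QNZ, against gene length in bases (log axis). The line joins the medians of 10 groups of genes by length, the band is the middle 50% of genes in each group, and the squares are the 9 genes, of which Inha, Inhba, Tgfbr1 and Tgfbr3 lie above the band and Ltbp1 below it.

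Inhba, Tgfbr1 and Tgfbr3 fall in the group from 6266 to 7680 bases, which had a median of 0.68 and a middle 50% from 0.17 to 1.14. In the group of Inha the middle 50% ran from -1.39 to 0.00429. All 4 lay above the middle 50% of genes of like length. Detrended, the same 4 genes were called without QNZ, beside 10.0% of all expressed genes, and Inha, Tgfbr1 and Tgfbr3 were called with QNZ, beside 6.34%. Under median-of-ratios scaling the same genes were called in each pair.

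In the comparisons of QNZ with none, none of the 9 genes was called higher or lower. Of all expressed genes, 1.11% were higher and 1.49% lower with QNZ in fibroblasts alone, and 0.309% and 0.759% in coculture. Tgfb3 came closest, with a ratio of 0.530 (0.486 to 0.578) alone and 0.508 (0.456 to 0.565) in coculture, and differences of -0.87 and -0.92. Alone, its difference was -1.16 under median-of-ratios scaling, past the size of 1. Tgfb1 had ratios of 1.36 (1.26 to 1.46) and 1.31 (1.22 to 1.404), with differences of 0.42 and 0.37 that stayed positive under every alternative run. Within a library Tgfb1 stood to Tgfb3 as 0.590 (0.548 to 0.636) alone, 0.887 (0.820 to 0.959) in coculture, 1.51 (1.39 to 1.64) alone with QNZ and 2.28 (2.07 to 2.53) in coculture with QNZ. Tgfb3 was thus the more abundant isoform per length without QNZ, and Tgfb1 with it, in both culture states. Ltbp1 had ratios of 0.743 (0.710 to 0.779) alone and 0.778 (0.747 to 0.809) in coculture.

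The ratio of QNZ to none for Inha was 3.28 (1.64 to 7.14) in fibroblasts alone and 0.539 (0.430 to 0.671) in coculture. For Inhba it was 1.54 (1.47 to 1.61) and 0.907 (0.882 to 0.933). For Tgfbr1 it was 1.73 (1.41 to 2.14) and 0.995 (0.903 to 1.10), and the counting interval in coculture held 1. The coculture difference with QNZ minus that without it was -1.60 for Inha, -0.75 for Inhba, -0.52 for Tgfbr1 and -0.10 for Tgfbr3 on the log2(FPKM + 1) scale. It was below 0 for 8 of the 9 genes, beside 67.0% of all expressed genes, whose median was -0.15. With 1 library per condition this dependence on QNZ was not tested.

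**Figure D3:**
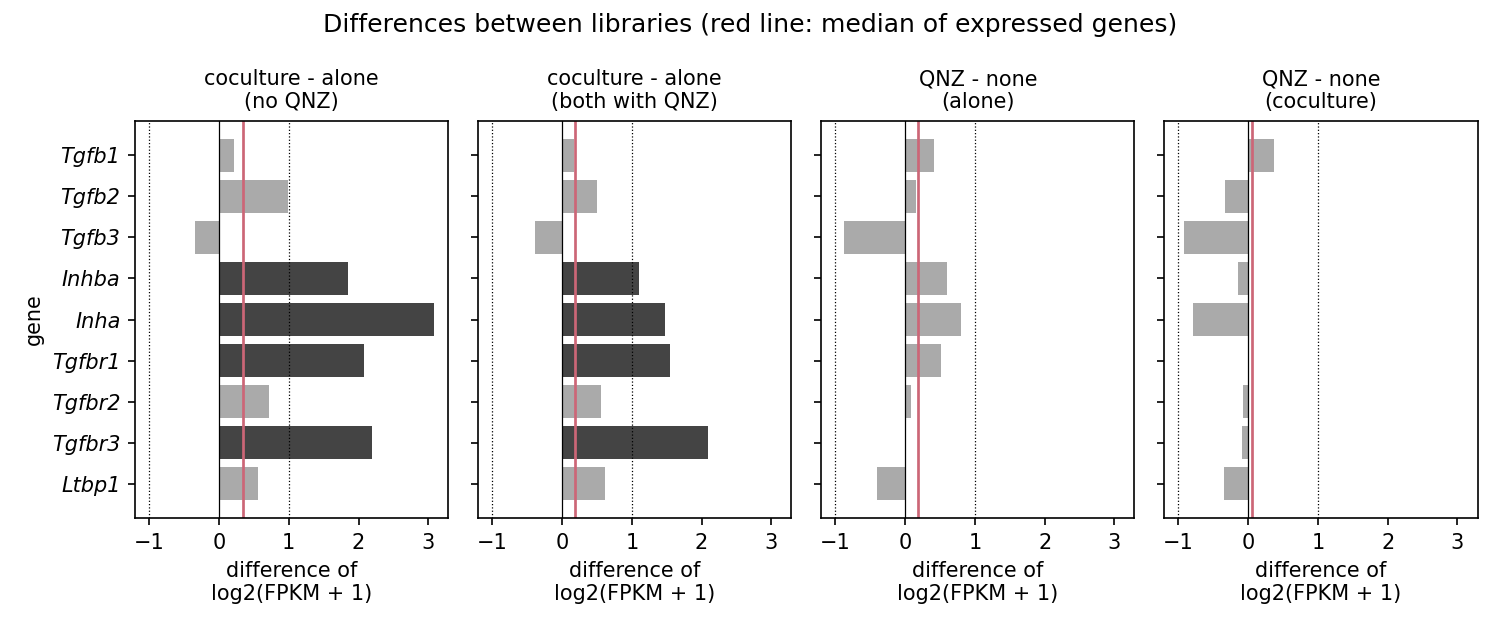
Difference of log2(FPKM + 1) for the 9 genes in the 4 comparisons, with dark bars where it is at least 1 in size, dotted lines at -1 and 1 and a red line at the median of all expressed genes. Inhba, Inha, Tgfbr1 and Tgfbr3 pass 1 in both coculture comparisons, and no gene does so in the comparisons of QNZ with none.

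A list of genes around the storage and release of latent TGF-β had 15 expressed genes. Without QNZ 9 were higher in coculture and none lower, with a median of 1.29, beside 24.0% higher and 11.0% lower of all expressed genes. With QNZ 9 were higher and none lower, with a median of 1.04, beside 14.0% and 8.70%. Detrended, 4 were higher and 0 lower without QNZ, with a median of 0.20, and 4 were higher and 0 lower with QNZ, with a median of 0.43, beside 10.0% and 6.34% higher of all expressed genes. The list gene with the largest difference, Ltbp2, is a relative of Ltbp1 that itself does not bind latent TGF-β. It had an FPKM of 39.3 alone, 204 in coculture, 36.6 alone with QNZ and 189 in coculture with QNZ. Its differences were 2.34 and 2.34, or 1.504 and 1.73 detrended. Thbs1, whose product thrombospondin can activate latent TGF-β, had 861 alone, 3146 in coculture, 876 alone with QNZ and 2238 in coculture with QNZ, with differences of 1.87 and 1.35, or 1.26 and 1.05 detrended. Lrrc32, which encodes GARP, a cell surface anchor of latent TGF-β, had 39.8 alone, 128 in coculture, 50.01 alone with QNZ and 126 in coculture with QNZ, with differences of 1.66 and 1.31, or 1.35 and 1.12 detrended. For each of these 3 genes both coculture libraries were above both libraries without MSCs.

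Of 6 expressed inhibitors that bind activin or TGF-β, 4 were higher in coculture and none lower without QNZ, with a median of 1.24, beside 24.0% higher and 11.0% lower of all expressed genes. With QNZ 2 were higher and none lower, with a median of 0.91, beside 14.0% and 8.70%. Detrended, 4 were higher and 0 lower without QNZ, with a median of 1.20, and 3 were higher and 0 lower with QNZ, with a median of 0.98. Of all expressed genes, 10.0% were then higher and 11.4% lower without QNZ, and 6.34% and 6.33% with it. Decorin (Dcn), a matrix proteoglycan that binds TGF-β, had an FPKM of 16.2 alone, 101 in coculture, 9.34 alone with QNZ and 74.3 in coculture with QNZ, with differences of 2.56 and 2.87. Fst (follistatin), the activin antagonist, had 6.80 alone, 15.7 in coculture, 3.04 alone with QNZ and 5.95 in coculture with QNZ. Its coculture difference without QNZ was 1.10, or 0.66 detrended. Fst and fibromodulin (Fmod) were the genes of this list called lower with QNZ in coculture, with differences of -1.27 and -1.004, beside 0.759% of all expressed genes. Within a library Inhba stood to Fst per length as 4.67 (4.24 to 5.15) alone, 7.44 (6.99 to 7.93) in coculture, 16.1 (14.0 to 18.5) alone with QNZ and 17.8 (16.05 to 19.9) in coculture with QNZ. The excess of Inhba over Fst was larger in both libraries with QNZ than in both without it.

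Of 10 expressed activin receptors and co-receptors, 5 were higher in coculture and none lower without QNZ, with a median of 0.92, beside 24.0% higher and 11.0% lower of all expressed genes. With QNZ 4 were higher and none lower, with a median of 0.61, beside 14.0% and 8.70%. Detrended, 2 were higher and 1 lower without QNZ, and 1 was higher and none lower with it. Of all expressed genes, 10.0% were then higher and 11.4% lower without QNZ, and 6.34% and 6.33% with it. The lower gene of the list was Bambi, a decoy receptor, at -1.62, where it had -0.84 as deposited. Acvr1b, a type I receptor of activin, had an FPKM of 5.95 alone, 16.1 in coculture, 6.76 alone with QNZ and 14.6 in coculture with QNZ, with differences of 1.30 and 1.01, or 1.18 and 0.9999 detrended. Cd109, a TGF-β co-receptor, had 7.42 alone, 30.4 in coculture, 8.14 alone with QNZ and 22.6 in coculture with QNZ, with 1.90 and 1.37, or 0.86 and 0.75 detrended. The calls of Cd109 in both pairs and of Acvr1b with QNZ were thus lost. Tgfbr3l, a relative of Tgfbr3, had no read in either library without MSCs, 70 in coculture and 47 in coculture with QNZ. With 3 reads per library as the floor it was at least 24.2-fold higher in coculture without QNZ and at least 18.8-fold higher with it. Its exons overlap Gm49320 on the same strand, so its reads are uncertain.

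Of 16 expressed Smads and regulators, 7 were higher in coculture and none lower without QNZ, with a median of 0.94, beside 24.0% higher and 11.0% lower of all expressed genes. With QNZ 3 were higher and none lower, with a median of 0.54, beside 14.0% and 8.70%. Detrended, 1 was called higher without QNZ and none with it, where 10.0% and 6.34% of all expressed genes were. That gene was Smad7, the inhibitory Smad, with an FPKM of 8.73 alone, 37.6 in coculture, 14.9 alone with QNZ and 31.4 in coculture with QNZ, differences of 1.99 and 1.03, or 1.71 and 0.84 detrended. Skil, a repressor of Smad signalling, had 3.58 alone, 20.2 in coculture, 5.64 alone with QNZ and 20.6 in coculture with QNZ, with differences of 2.21 and 1.70, or 0.80 and 0.71 detrended.

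Response genes of TGF-β did not move one way. Of the list, 25 were expressed, which include Smad7, Skil, Pmepa1 and Ltbp2 again. Without QNZ 11 were higher in coculture and 2 lower, with a median of 0.61, beside 24.0% higher and 11.0% lower of all expressed genes. With QNZ the median was 0.54, and 8 were higher and 1 lower, beside 14.0% and 8.70%. Detrended, 8 were higher and 2 lower without QNZ, with a median of 0.11, and 5 were higher and 0 lower with QNZ, with a median of 0.45. The shares of all expressed genes were then 10.0% higher and 11.4% lower without QNZ, and 6.34% and 6.33% with it. Under median-of-ratios scaling 6 of the 25 were higher and 3 lower without QNZ, and 6 and 2 with it. By that scaling 1477 of the 11335 expressed genes were higher and 2342 lower without QNZ, and 1013 and 1498 with it. Tgfbi, a matrix protein gene named for its induction by TGF-β, had an FPKM of 3.25 alone, 16.7 in coculture, 1.16 alone with QNZ and 9.58 in coculture with QNZ, with differences of 2.06 and 2.29. Acta2, the smooth muscle actin gene that marks myofibroblasts, had 3113 alone, 985 in coculture, 1217 alone with QNZ and 456 in coculture with QNZ, with differences of -1.66 and -1.41, or -1.26 and -0.93 detrended, so that its call with QNZ was lost. With QNZ 5 of the 25 were lower in fibroblasts alone and 2 in coculture, and none was higher in either, beside 1.49% lower and 1.11% higher of all expressed genes alone and 0.759% and 0.309% in coculture. Col3a1, a fibrillar collagen gene, had 23.4 alone, 56.1 in coculture, 5.82 alone with QNZ and 19.5 in coculture with QNZ, with QNZ differences of -1.84 alone and -1.48 in coculture. Of the other ligand genes of the family, 4 were expressed (Inhbb, Gdf11, Lefty1 and Gdf15). As deposited and detrended, none of them was called in coculture in either pair. As deposited, 24.0% of all expressed genes were higher and 11.0% lower without QNZ, and 14.0% and 8.70% with it. Under median-of-ratios scaling 1 of the 4 was lower in each pair, beside 20.7% of all expressed genes without QNZ and 13.2% with it. As TPM 2 were higher without QNZ, beside 46.5%, and none with it. Inhbb, the activin βB subunit gene, had 32.0 alone, 49.0 in coculture, 35.8 alone with QNZ and 49.3 in coculture with QNZ. Gdf15, a stress-induced ligand, had 8.41 alone, 13.4 in coculture, 37.1 alone with QNZ and 21.7 in coculture with QNZ, and was called higher with QNZ in fibroblasts alone, with a difference of 2.02.

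**Figure D4:**
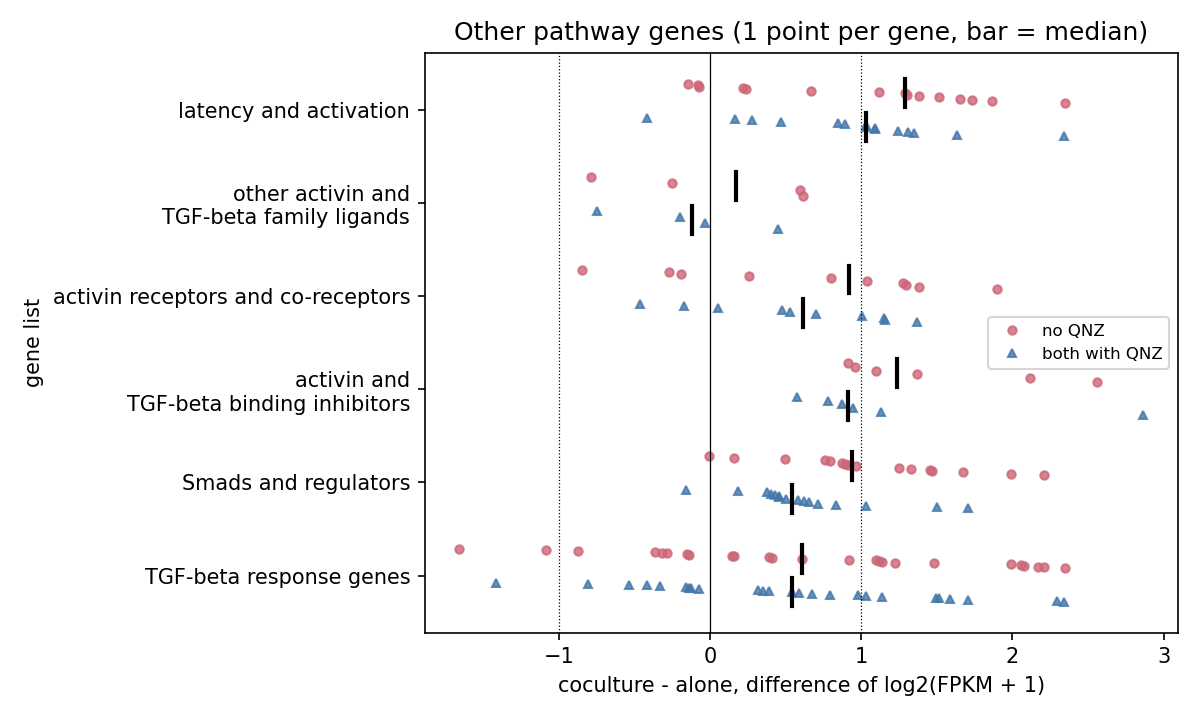
Difference of log2(FPKM + 1) between coculture and alone for the expressed genes of 6 pathway lists, with 1 point per gene, circles without QNZ, triangles with QNZ in both libraries, and a black bar at the median. Dotted lines mark -1 and 1. The medians of the latency list are 1.29 and 1.04, and without QNZ the response genes spread from Acta2 at -1.66 to Ltbp2 at 2.34.

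The pattern of Inha over the 4 libraries was closest to those of Id2, Plod2 and Pdk4 among 11099 other genes, by the distance between log2(FPKM + 1) values centred on their mean, which was 0.27, 0.38 and 0.43. Id2, an inhibitor of helix-loop-helix transcription factors, had an FPKM of 5.00 alone, 41.9 in coculture, 10.4 alone with QNZ and 29.2 in coculture with QNZ. The pattern of Tgfb3, the gene with the lowest coculture difference of the 9, was close to those of Tent5b and Mrgprf, at distances of 0.17 and 0.18. These distances rest on 4 libraries and describe likeness only.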

How the data were processed

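Stranded (dUTP) libraries were mapped by the authors to mm10 with STAR 2.5.4b, and Cuffnorm of Cufflinks 2.2.1 is named for the FPKM values. The deposited table gives a raw read count and an FPKM for each of 21862 gene IDs in 4 libraries. Each deposited FPKM equalled the count divided by gene length and column total, within a relative tolerance of 1e-06. The labels and methods name neither the read counter, the annotation version nor the strand setting. IDs that share 1 of 23 symbols were added together, leaving 21839 genes.

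The scale was log2(FPKM + 1), with a pseudocount of 1, and a difference of at least 1 was called. No test between conditions was run, since each condition had 1 library. Intervals of ratios are exact (Clopper-Pearson, 95%) and cover counting error only, since PCR reads without molecular identifiers are not independent molecules. A count of 0 was given a limit of 3 reads, between 0.190 and 0.228 per 1000000. List genes entered at an FPKM of 1 in some library, so that some genes low in fibroblasts alone entered on their coculture level. The rule for names took the 9 genes, up to 4 genes of each list with the largest coculture difference without QNZ, up to 2 in each other comparison, and the 3 genes closest in pattern to the genes with the largest and the lowest coculture difference. A selection of these is given, and some items are not reported here. The 9 genes, the lists and the rules were chosen with earlier results of these data known.

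The differences and counts of the 9 genes and the counts over all expressed genes were recomputed with a pseudocount of 0.1 or 0.01, an FPKM filter of 1 or 5, median-of-ratios scaling, TPM, the gene ID with most reads per symbol, a size of 2, and removal of a smooth trend over length, or over length and GC content, from each library (lowess, span 0.3, 3 rounds). List counts were recomputed as TPM, under median-of-ratios scaling and without the trend over length and GC content, single list genes only without that trend, and ratios within a library and pattern distances under no alternative. GC content came from GENCODE M21 transcripts, which hold 21845 of the gene IDs. Scripts were tested on simulated data and ran in Python 3.11.15 with numpy 2.4.6 and pandas 2.3.3, as well as scipy 1.17.1, and with statsmodels 0.14.6 and matplotlib 3.10.9.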

Additional observations from a re-analysis of the deposited data

Results flagged for a closer look

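The difference between QNZ and none had opposite signs in fibroblasts alone and in coculture for 6 of the 9 genes. Each direction rests on 1 library per condition, and whether the directions differ was not tested. On the log2(FPKM + 1) scale Inha had 0.80 alone and -0.80 in coculture, and Inhba had 0.61 and -0.14. For both genes the counting intervals of both ratios left out 1. Tgfbr1 had 0.52 and -0.00651, Tgfb2 had 0.15 and -0.34, Tgfbr2 had 0.08 and -0.07, and Tgfbr3 had 0.00968 and -0.09. For each of these 4 genes the counting interval of at least 1 of the ratios held 1. Under median-of-ratios scaling Tgfb2, Tgfbr2 and Tgfbr3 had -0.00980, -0.19 and -0.26 in fibroblasts alone, so that their signs were then the same in both culture states.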

How the results depend on the processing

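Over 10 alternatives, the number of the 9 genes called stayed within 1.5 times of that reported in 72 cases and left it in 8. Many of the 72 could not have come out otherwise, so they do not measure stability. The FPKM filter of 1 and the gene ID with most reads left every difference of the 9 genes unchanged. An FPKM filter of 5 or a size of 2 cannot add a call where none was made. For coculture against alone, 7 genes were higher without QNZ as TPM (Ltbp1, Tgfb2 and Tgfbr2 in addition), and 1 was higher with QNZ at a size of 2, which by its construction asks for a larger difference. For QNZ against none in fibroblasts alone, 1 gene (Inha) was higher with a pseudocount of 0.1 or 0.01 or as TPM, and 1 gene (Tgfb3) was lower under median-of-ratios scaling and after taking out the trend with length, alone or with GC content. No called difference changed its sign. The difference of a single gene moved by more than its counting interval in 95 cases and by less in 261. Those 261 include every case of the FPKM filters, the size of 2 and the gene ID with most reads. These settings left the difference of each gene they kept unchanged, so their cases are no check of it. Signs of differences under 1 changed 7 times for coculture without QNZ, 5 times with QNZ and 9 times for QNZ in fibroblasts alone, in Tgfb1, Tgfb2, Tgfb3, Tgfbr2, Tgfbr3 and Ltbp1, and the cause was not tested. The coculture difference without QNZ ran from 2.79 to 4.55 for Inha, from 1.02 to 2.39 for Inhba, from 1.47 to 2.93 for Tgfbr1 and from 1.41 to 2.77 for Tgfbr3. At an FPKM filter of 5 Tgfb2 has no value. Over all expressed genes, the count of higher and lower genes in coculture without QNZ moved from 2719 and 1252 as deposited to 1477 and 2342 under median-of-ratios scaling, 5273 and 646 as TPM and 365 and 125 at a size of 2. With QNZ it moved from 1584 and 986 to 1013 and 1498, 3620 and 578, and 141 and 60 under the same settings. No replicate could be left out, since each condition had 1 library, and no model that pairs the libraries by culture or by QNZ was run. Depth limits Inha most, with 11 reads in fibroblasts alone.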
